A study of Mus musculus with 4 samples.

Results

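Immune barcodes of wild-type MC38 tumors treated with anti-PD1 were compared with those of wild-type MC38 tumors treated with IgG. MC38 is a mouse colon adenocarcinoma cell line, and WT denotes unedited MC38 cells without the RAC1 A159V substitution carried by the other tumors of the series. WT IgG and WT anti-PD1 were 1 library each, from tumors grown under the skin of C57BL/6 mice that received either the PD1-blocking antibody or control IgG at repeated injections until harvest at the same time point. The number of animals behind a library is not given in the sources used here, so animal, tumor and treatment cannot be told apart and no test between the libraries was possible. A barcode was kept if it held more than 500 genes, at least 2 unique molecular identifiers (UMIs) of Ptprc, the gene of the pan-leukocyte protein CD45, and 0 UMIs of Hmga2, a gene of the tumor line. This gave 3508 barcodes in WT anti-PD1 and 3738 in WT IgG, together 7246 of the 33228 barcodes deposited for the 4 libraries. The question was which differences between the treatments ran through all immune lineages and which stood in 1 lineage.

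PD1, the product of Pdcd1, is an inhibitory receptor of activated T cells, and antibodies that block it release T cells from that inhibition. T cells and natural killer (NK) cells kill target cells with perforin and granzymes, and both signal to macrophages through interferon gamma. Type I interferon acts on nearly every cell through a shared receptor and STAT and IRF factors, which switch on a common set of antiviral genes, whereas the liver X receptors (LXR) sense oxidized cholesterol and switch on genes that export it. In tumors, Ly6c2-positive monocytes enter from the blood and mature into macrophages, some of which take up lipid, express the mannose receptor Mrc1 and arginase Arg1, or present antigen on MHC class II.

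T barcodes carried at least 2 UMIs of Cd3d, Cd3e and Cd3g together, NK barcodes at least 2 UMIs of Ncr1 and Klrb1c with no Cd3 UMI, and myeloid barcodes at least 3 UMIs of Lyz2. Barcodes that met the myeloid gate and a lymphoid gate (37 T and 4 NK barcodes in WT anti-PD1, 52 and 2 in WT IgG) were left out of the summed profiles. T barcodes then made up 30.3% of immune barcodes in WT anti-PD1 (1062 barcodes, exact binomial 95% interval 28.8 to 31.8%) and 21.4% in WT IgG (799 barcodes, 20.1 to 22.7%). NK barcodes made up 9.04% (317 barcodes, 8.11 to 10.03%) and 3.93% (147 barcodes, 3.33 to 4.61%). Myeloid barcodes made up 23.4% (820 barcodes, 21.98 to 24.8%) and 35.1% (1312 barcodes, 33.6 to 36.6%). The lymphoid shares were thus higher and the myeloid share lower in WT anti-PD1. Median depth differed between the libraries, and with the gates read at 1500 UMIs per barcode 551 T, 164 NK and 190 myeloid barcodes were left in WT anti-PD1 and 481, 62 and 550 in WT IgG. These intervals, and all those given after them, cover counting error only and not the spread between tumors. A further 1268 and 1426 immune barcodes met no gate. Cells had been separated on beads for CD45 and remixed at a set ratio, so shares within immune cells could be read and shares of immune cells in the tumor could not.

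Median depth was 3889 UMIs per T barcode in WT anti-PD1 and 3640 in WT IgG, 3779 and 4904 per NK barcode, and 6756 and 3961 per myeloid barcode. The summed profiles held 5436763 and 3806004 UMIs in T, 1670408 and 879774 in NK, and 6604391 and 6869837 in myeloid barcodes. Gate labels were checked against other markers. Trac, a constant chain of the T cell receptor, was at 485 and 566 UMIs per 1000000 UMIs of the profile (CPM) in T barcodes against 2.12 and 1.601 CPM in myeloid barcodes, and Lck, a kinase of T cell receptor signaling, at 264.5 and 266 CPM against 1.21 and 1.89 CPM. The 7 NK markers summed to 6423 and 8127 CPM in NK, 1774 and 2156 CPM in T and 34.5 and 84.1 CPM in myeloid barcodes. The 7 myeloid markers summed to 3569 and 5828 CPM in myeloid, 1569 and 3495 CPM in NK and 229 and 469 CPM in T barcodes. Their sum thus set myeloid barcodes only weakly apart from NK barcodes. The 4 B cell markers stayed under 8 CPM in all 3 lineages of both libraries. Fewer transcripts per cell and fewer expressing cells cannot be told apart in summed profiles.

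WT anti-PD1 stood apart in its stromal RNA. At least 1 UMI of 7 fibroblast markers (Col1a1, Col1a2, Col3a1, Dcn, Lum, Sparc, Bgn) was found in 89.6% of its T, 93.4% of its NK and 94.8% of its myeloid barcodes, against 16.5%, 16.3% and 20.7% in WT IgG. Most of these UMIs sat in a few barcodes: the 32 T, 11 NK and 22 myeloid barcodes with at least 20 stromal UMIs held 92.6%, 95.4% and 88.2% of them. With those barcodes left out, the 7 markers still summed to 579, 687 and 520 CPM in WT anti-PD1, against 50.01, 44.3 and 77.9 CPM in WT IgG. Tumor line RNA ran the other way, with the 5 tumor line markers at 0.736, 0.599 and 1.97 CPM in T, NK and myeloid barcodes of WT anti-PD1 and 64.9, 39.8 and 166 CPM in WT IgG. Fibroblast barcodes, with at least 10 UMIs of Col1a1, Col3a1 and Dcn and none of Ptprc or Hmga2, numbered 1420 in WT anti-PD1 and 354 in WT IgG, and barcodes with at least 2 UMIs of Hmga2 and none of Ptprc numbered 91 and 746. Some genes were over 5 times higher in such non-immune barcodes, of the library where they were higher, than in 1 or more of the profiles concerned. Results that rest on such genes are therefore named apart. The 2 WT libraries had 19 barcode sequences in common, 5 of them among the immune barcodes.

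A gene was measured in a lineage if it reached 50 CPM in 1 of the 2 WT libraries, and it was called if its CPM, with 1 CPM added, differed at least 2-fold (log2 ratio of WT anti-PD1 over WT IgG of at least 1 or at most -1). In T barcodes 276 of 4340 measured genes (6.36%) were higher in WT anti-PD1 and 298 (6.87%) were lower. In NK barcodes 672 of 4381 genes (15.3%) were higher and 347 (7.92%) were lower. In myeloid barcodes 371 of 3946 genes (9.4%) were higher and 343 (8.69%) were lower. The median log2 ratio of all measured genes was 0.26 in T, 0.36 in NK and 0.02 in myeloid barcodes, and list medians below are to be read against these. All gene lists and their members were chosen with earlier results of these data known, so their counts describe the data and are no independent support. Scaling by the median of ratios, which sets that middle near 0, turned the split to 157 higher and 534 lower in T and to 356 and 616 in NK, and left 369 and 348 in myeloid barcodes.

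Of 2909 genes measured in all 3 lineages, 58 (1.99%) were higher in WT anti-PD1 in all 3 and 69 (2.37%) were lower in all 3. With median-of-ratios scaling these were 38 and 93. With predicted doublets removed 25 genes were higher and 31 lower in all 3, and with gates read at a fixed depth of 1500 UMIs 18 and 42. A further 51 genes (1.75%) were higher and 85 (2.92%) lower in T and NK but not in myeloid barcodes. Among the same 2909 genes, 138 were higher in T, 325 in NK and 155 in myeloid barcodes. The T and NK sets had 109 genes in common (79.0% of the T set and 33.5% of the NK set), the T and myeloid sets 68 (49.3% and 43.9%), and the NK and myeloid sets 80 (24.6% and 51.6%). Among lower genes the T and NK sets had 154 in common (70.3% of 219 and 60.9% of 253), the T and myeloid sets 97 (44.3% and 49.0% of 198), and the NK and myeloid sets 79 (31.2% and 39.9%). Few genes went opposite ways. Cxcl2, a neutrophil chemoattractant, was higher in T and lower in NK barcodes, and Slfn5 was higher in NK and lower in T barcodes. Il17ra, Itgal, Nfib and Vcan were higher in T and lower in myeloid barcodes, and none was higher in myeloid and lower in T barcodes. Il17ra, Nfib, Slfn5, Sorl1, Stk10 and Vcan were higher in NK and lower in myeloid barcodes, and Adam8 and Pdcd1lg2 were higher in myeloid and lower in NK barcodes.

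Genes induced by type I interferon were lower in WT anti-PD1 in all 3 lineages. Of 32 listed genes, 23 of 29 measured were lower in T barcodes and none was higher (median log2 ratio -1.58, range -3.30 to 0.02). In NK barcodes 13 of 24 were lower and 1, Slfn5, was higher (median -1.25). In myeloid barcodes 30 of 32 were lower and none was higher (median -2.04, highest -0.50). Summed over the list, the level was 2959 CPM in WT anti-PD1 and 8835 CPM in WT IgG in T, 1957 and 3435 CPM in NK, and 4541 and 17240 CPM in myeloid barcodes. Of the 23 listed genes measured in all 3 lineages, 11 were lower in all 3, namely Isg15, Isg20, Bst2, Oasl1, Oasl2, Rsad2, Irf7, Ifi204, Ifi27l2a, Phf11b and Ifit1. With predicted doublets removed, Oasl1, Oasl2, Rsad2, Phf11b and Ifit1 no longer met both the minimum of 50 CPM and the 2-fold cut in all 3.

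Isg15, a ubiquitin-like protein that is attached to other proteins after interferon exposure (chr4:156199424-156200818, minus strand, mm10), was at 69.9 CPM in WT anti-PD1 and 592 CPM in WT IgG in T barcodes. It was at 25.7 and 186 CPM in NK barcodes and at 206 and 1747 CPM in myeloid barcodes. The log2 ratios were -3.06 (95% counting interval -3.22 to -2.91), -2.81 (-3.28 to -2.34) and -3.08 (-3.16 to -3.001), so the 3 lineages were close to each other although their levels were far apart. Isg20, an exonuclease that degrades viral RNA, was at 35.7 and 182 CPM in T, 10.8 and 59.1 CPM in NK, and 12.7 and 216 CPM in myeloid barcodes. Bst2, or tetherin, which holds budding virus at the cell surface, was at 138 and 726 CPM in T, 91.6 and 346 CPM in NK, and 261 and 1062 CPM in myeloid barcodes. Both were lower in WT anti-PD1 throughout, Isg20 most in myeloid barcodes (log2 ratio -3.98, against -2.32 in T and -2.35 in NK) and Bst2 most in T barcodes (-2.39, against -1.90 and -2.02).

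Irf7, the factor that amplifies type I interferon production, was at 38.1 and 195 CPM in T, 34.7 and 97.8 CPM in NK and 158 and 666 CPM in myeloid barcodes. Ms4a4c, a membrane protein of the MS4A family, was at 78.5 and 270 CPM in T, 41.3 and 247 CPM in NK and 190.5 and 1374 CPM in myeloid barcodes. Oasl1 and Oasl2, which belong to the oligoadenylate synthetase family of RNA sensors, had log2 ratios between -2.39 and -1.72 in the 3 lineages. Without predicted doublets Oasl1 was at 16.05 and 41.35 CPM in NK barcodes, under the minimum of 50 CPM. Cxcl10, the chemokine that draws CXCR3-positive T cells, was at 30.7 and 289 CPM in T, 12.0 and 175 CPM in NK and 552 and 2382 CPM in myeloid barcodes. Cxcl10 was also over 5 times higher in non-immune barcodes of WT IgG than in 1 or more of these profiles, and the part of that RNA in its levels was not tested.

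**Figure D1:**
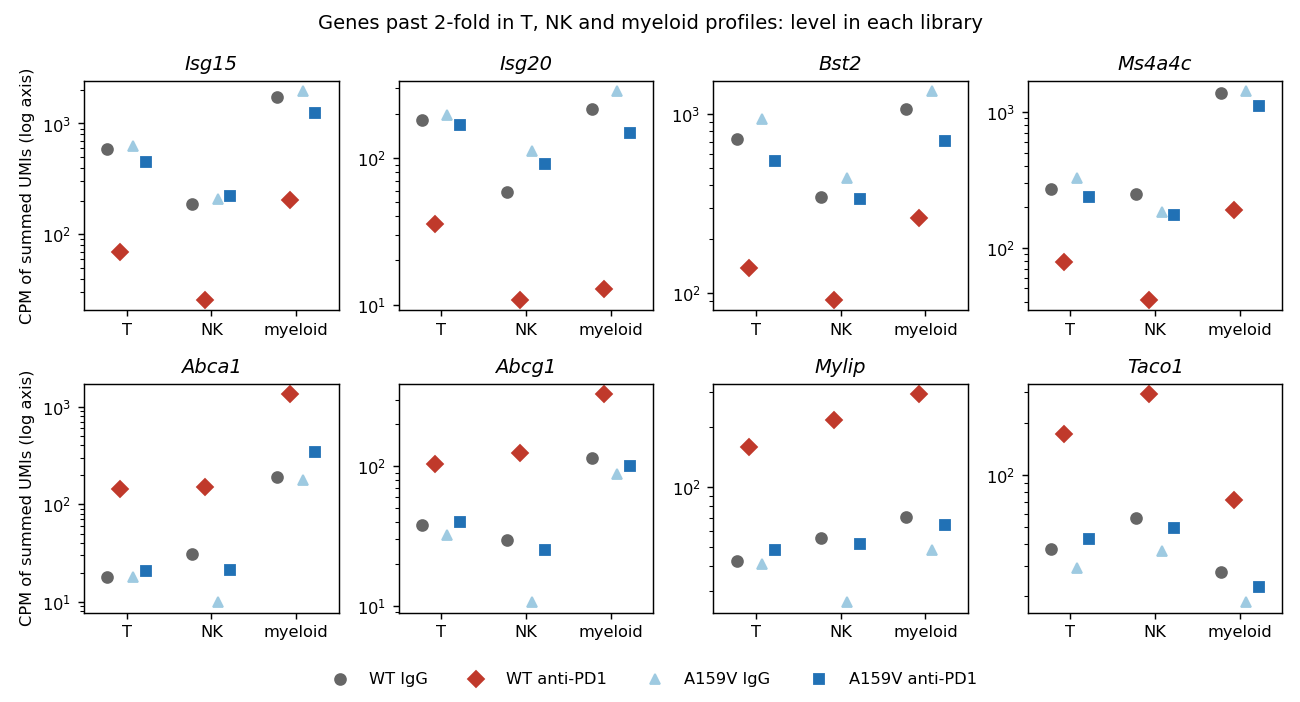
Level of 8 genes past 2-fold in all 3 lineages, in CPM of the summed UMIs (log axis), for T, NK and myeloid barcodes of each of the 4 libraries, 1 point per library. WT anti-PD1 (diamonds) is the lowest of the 4 libraries for Isg15, Isg20, Bst2 and Ms4a4c and the highest for Abca1, Abcg1, Mylip and Taco1 in every lineage.

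Rsad2, or viperin, an antiviral enzyme, was at 33.1 and 136 CPM in T, 16.8 and 102 CPM in NK and 254.5 and 932 CPM in myeloid barcodes. In NK barcodes of WT IgG, 7 of the 147 barcodes were predicted doublets and held 62 of the 90 Rsad2 UMIs and 77 of the 164 Isg15 UMIs. With predicted doublets removed, the NK log2 ratio of Rsad2 went from -2.54 to -0.85 and that of Isg15 from -2.81 to -2.52, and the NK median of the interferon list went from -1.25 to -0.60. The T and myeloid medians were -1.52 and -2.13 without predicted doublets. RNA of other cells in a droplet was gauged by C1qa, C1qb and C1qc, genes of macrophages. T barcodes held 1.31% of the myeloid level of these genes in WT anti-PD1 and 7.63% in WT IgG, and NK barcodes 0.884% and 4.45%. The 48 lower genes that were neither stray nor ribosomal had a median T level of 86.6% of the myeloid level in WT anti-PD1 and 85.3% in WT IgG, and 47 of the 48 stood above the C1q share in WT IgG T barcodes. All 48 had to reach 50 CPM in each lineage, which by itself favors levels above that share. The lowest of them stood at 5.76% in WT IgG T barcodes, and the part of myeloid RNA in them was not tested.

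Isg15, Rsad2, Bst2 and Cxcl10 were lower in all 3 lineages and are among the 9 of 58 matched lower genes with the pattern described here. Their promoter windows are shown as examples, and windows without the pattern are not shown. They span 250 bases before to 50 bases after the start of the gene, are taken from RefSeq (GRCm38.p6), read 5′ to 3′ along the gene's strand, and have in capitals every match to GAAA, 2 bases of any kind and GAAA, or to its reverse complement, TTTC, 2 bases of any kind and TTTC. This pattern is the core of the interferon-stimulated response element. Isg15 (chr4:156200769-156201068, minus strand) holds 3 overlapping matches, Rsad2 (chr12:26456403-26456702, minus strand) 1, Bst2 (chr8:71537423-71537722, minus strand) 2 overlapping and Cxcl10 (chr5:92348840-92349139, minus strand) 1.
Isg15: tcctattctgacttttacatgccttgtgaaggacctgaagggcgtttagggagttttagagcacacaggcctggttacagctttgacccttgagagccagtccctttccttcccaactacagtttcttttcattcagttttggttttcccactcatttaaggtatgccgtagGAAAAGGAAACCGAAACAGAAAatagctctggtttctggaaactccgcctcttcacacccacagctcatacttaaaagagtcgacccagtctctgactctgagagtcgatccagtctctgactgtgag
Rsad2: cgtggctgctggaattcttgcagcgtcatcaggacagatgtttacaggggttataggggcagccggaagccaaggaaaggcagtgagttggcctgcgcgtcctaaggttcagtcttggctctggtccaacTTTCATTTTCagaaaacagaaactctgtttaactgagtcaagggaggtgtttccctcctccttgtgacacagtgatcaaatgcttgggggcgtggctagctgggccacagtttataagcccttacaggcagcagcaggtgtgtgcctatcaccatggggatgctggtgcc
Bst2: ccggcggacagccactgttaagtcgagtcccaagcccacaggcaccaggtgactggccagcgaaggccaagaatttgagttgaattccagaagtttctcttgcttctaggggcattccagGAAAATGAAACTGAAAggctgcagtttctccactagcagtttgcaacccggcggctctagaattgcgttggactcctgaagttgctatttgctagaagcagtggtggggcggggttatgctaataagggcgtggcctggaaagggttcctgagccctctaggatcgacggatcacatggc
Cxcl10: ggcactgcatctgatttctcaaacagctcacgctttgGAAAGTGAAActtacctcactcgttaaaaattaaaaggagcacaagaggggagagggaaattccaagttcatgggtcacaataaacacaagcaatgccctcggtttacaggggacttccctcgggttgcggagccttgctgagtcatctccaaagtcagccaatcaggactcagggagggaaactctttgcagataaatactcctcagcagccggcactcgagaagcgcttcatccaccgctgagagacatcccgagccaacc
The pattern occurred in 3.44% of all 32851 promoter windows and in 3.99% of the 27025 genes of that table. It occurred in 15 of the 25 matched genes of the interferon list (60.0%), in 5 of the 9 matched genes of that list lower in all 3 lineages, in 9 of 58 matched genes among all 69 lower ones (15.5%) and in 4 of 43 matched genes among the 58 higher ones (9.3%). A match describes the letters of a window and not the binding of a factor.

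The other genes lower in all 3 lineages were mostly short. Ubb, which encodes polyubiquitin, was at 340 CPM in WT anti-PD1 and 1621 CPM in WT IgG in T barcodes, 335 and 1164 CPM in NK and 483 and 1431 CPM in myeloid barcodes. Tspo, a cholesterol-binding protein of the outer mitochondrial membrane, was at 175 and 451 CPM, 188 and 610 CPM, and 374 and 1173 CPM. The log2 ratios were -2.25, -1.79 and -1.56 for Ubb and -1.36, -1.69 and -1.64 for Tspo in T, NK and myeloid barcodes. Clic1, a chloride channel protein, and Polr2j, a subunit of RNA polymerase II, had log2 ratios between -1.82 and -1.22. Ciao2b, of the cytosolic iron-sulfur assembly machinery, was at 29.6 and 97.0 CPM in T, 25.1 and 85.3 CPM in NK and 33.6 and 99.3 CPM in myeloid barcodes. Hist1h2ap and Dut, genes of S phase, and Spp1, or osteopontin, were also lower in all 3 and were stray by the definition above, so the part of tumor line RNA in them was not tested.

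Ribosomal protein genes were lower as a group and mostly by less than 2-fold. Of 81 measured in T barcodes 30 were lower and none was higher (median -0.81), of 82 in NK barcodes 31 were lower and none was higher (median -0.88), and of 80 in myeloid barcodes 13 were lower and none was higher (median -0.61). Their share of all UMIs was 10.4% in WT anti-PD1 and 17.6% in WT IgG in T, 12.2% and 20.3% in NK, and 7.53% and 10.6% in myeloid barcodes. The 69 lower genes included 13 ribosomal protein genes, and their median length was 4997 bases against 32130 bases for all genes measured in the 3 lineages.

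Gene length moved with the log2 ratio. In T barcodes the shortest of 4 length classes of genes (median 5868 bases) had a median log2 ratio of -0.48 and the longest class (median 138500 bases) one of 0.49. In NK barcodes these medians were -0.48 and 0.68, and in myeloid barcodes -0.25 and 0.12. After the median of genes of like length was subtracted, 25 of the 69 lower and 45 of the 58 higher genes were still past 2-fold in all 3 lineages, among them 1 of the 13 ribosomal protein genes. The interferon list then had medians of -1.61, -1.09 and -1.96 in T, NK and myeloid barcodes, where its unadjusted medians were -1.58, -1.25 and -2.04.

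**Figure D2:**
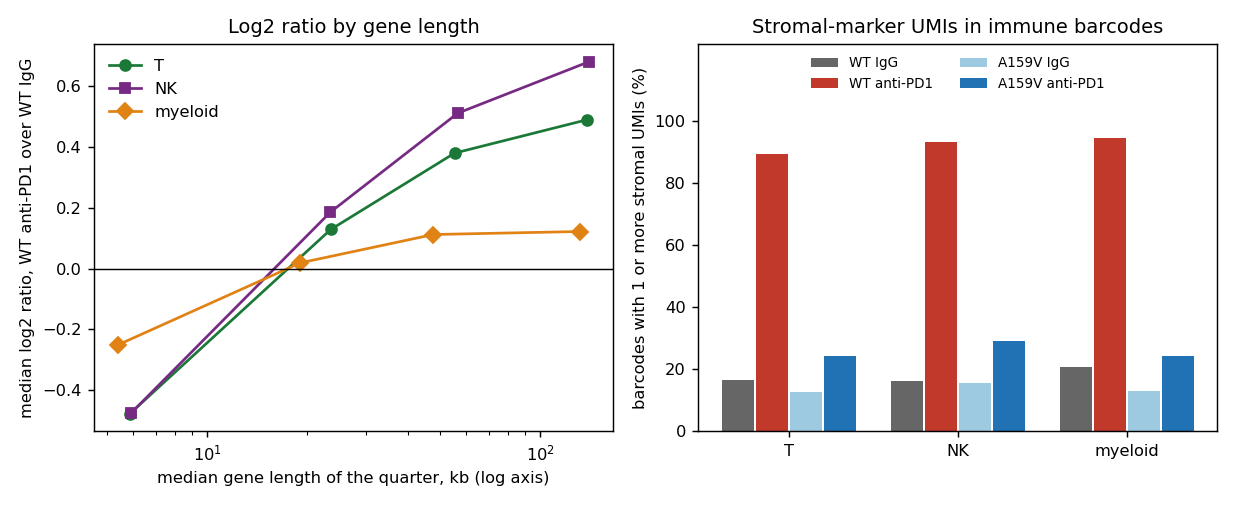
Left, median log2 ratio of CPM (WT anti-PD1 over WT IgG) of the measured genes in 4 classes of gene length, against the median length of the class (kilobases, log axis), for T, NK and myeloid barcodes; the line rises from -0.48 to 0.49 in T and only from -0.25 to 0.12 in myeloid barcodes. Right, percent of barcodes with 1 or more UMIs of 7 stromal markers in each library and lineage, with WT anti-PD1 at 89.6 to 94.8% and the other 3 libraries at 12.5 to 29.0%.

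Genes activated by LXR were higher in WT anti-PD1 in all 3 lineages. This list was added after the data were seen, because Abca1, Abcg1 and Mylip led the genes higher in all 3, so its counts restate that choice. Abca1, the transporter that loads cholesterol onto apolipoproteins (chr4:53030787-53159895, minus strand, mm10), was at 144 CPM in WT anti-PD1 and 17.9 CPM in WT IgG in T barcodes, 152 and 30.7 CPM in NK barcodes and 1342 and 192 CPM in myeloid barcodes. The log2 ratios were 2.94 (2.60 to 3.28), 2.27 (1.71 to 2.82) and 2.80 (2.72 to 2.88). Abcg1, which passes cholesterol to high-density lipoprotein, was at 104 and 38.1 CPM in T, 124.5 and 29.6 CPM in NK and 329 and 114 CPM in myeloid barcodes. Mylip, the ligase that degrades the LDL receptor, was at 158 and 42.8 CPM, 216 and 55.7 CPM, and 292 and 71.0 CPM. In each of these 3 genes all lineages of WT anti-PD1 were above the same lineage of the other 3 libraries.

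Scd2, a fatty acid desaturase, was at 80.6 and 27.3 CPM in T, 129 and 54.6 CPM in NK and 185 and 45.6 CPM in myeloid barcodes. With gates read at a fixed depth of 1500 UMIs its NK log2 ratio went from 1.22 to -0.02. Over the list, 4 of 7 measured genes were higher in T (median 1.43), 6 of 6 in NK (1.62) and 6 of 8 in myeloid barcodes (1.78), and none was lower. Apoe, the lipid carrier, was at 46.7 and 50.2 CPM in T, 82.0 and 36.4 CPM in NK and 3780 and 1275 CPM in myeloid barcodes, so it was higher in NK and myeloid barcodes and within its counting interval in T barcodes (log2 ratio -0.10, -0.37 to 0.16). Genes of cholesterol synthesis and uptake went the other way in myeloid barcodes, where 7 of 9 were lower and 1, Scd2, was higher (median -1.17). That median was -0.29 with predicted doublets removed, -0.40 with gates read at 1500 UMIs, -0.44 for the mean CPM per barcode and 0.66 in myeloid barcodes with at least 3 UMIs of the C1q genes. Fdps and Cyp51 are enzymes of the mevalonate and sterol pathway. Fdps was at 4.997 and 68.7 CPM and Cyp51 at 5.91 and 59.8 CPM in myeloid barcodes. Fdps was also at 4.60 and 37.6 CPM in T and 3.59 and 29.6 CPM in NK barcodes, under the minimum of 50 CPM. Fdps was over 5 times higher in non-immune barcodes of WT IgG than in 1 or more profiles.

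The other genes higher in all 3 lineages had varied roles. Taco1, a mitochondrial activator of cytochrome oxidase translation, was at 172 and 37.6 CPM in T, 293 and 56.8 CPM in NK and 71.5 and 27.7 CPM in myeloid barcodes. Fabp4, a fatty acid carrier of adipocytes and macrophages, was at 111 and 1.05 CPM in T, 61.7 and 6.82 CPM in NK and 270 and 30.1 CPM in myeloid barcodes. In T barcodes Fabp4 rested on 602 UMIs against 4, which gave a log2 ratio of 5.77 (5.03 to 6.50). Glul, glutamine synthetase, was at 54.1 and 17.3 CPM in T, 59.9 and 12.5 CPM in NK and 273 and 42.4 CPM in myeloid barcodes. Plxdc2, Dse, the dermatan sulfate epimerase, and Hexim1, an inhibitor of transcription elongation, had log2 ratios between 1.203 and 3.34 in the 3 lineages. Fabp4, Glul, Plxdc2 and Dse no longer met both the minimum of 50 CPM and the 2-fold cut in all 3 with predicted doublets removed. The same held for these genes with gates read at 1500 UMIs. Of the 58 higher genes, 32 were over 5 times higher in the fibroblast or Hmga2 barcodes of WT anti-PD1 than in 1 or more of the 3 lineages, and 26 were not.

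The 32 stray genes were led by collagens and other matrix genes. Col1a1, a chain of type I collagen, was at 1817 and 13.4 CPM in T, 3230 and 7.96 CPM in NK and 1174 and 86.2 CPM in myeloid barcodes. Postn, or periostin, was at 260 and 2.37 CPM in T, 435 and 2.27 CPM in NK and 234 and 11.7 CPM in myeloid barcodes. Lum and Meg3 had 0 UMIs in NK barcodes of WT IgG, where 3 UMIs would be 3.41 CPM, so they were at least 63.0-fold and at least 39.3-fold higher in WT anti-PD1. In T barcodes of WT anti-PD1 the 32 genes had a median of 8.96% of their level in fibroblast barcodes of that library. In myeloid barcodes the median was 5.12% and the highest gene was at 424.5%, and the NK median was above both medians. With barcodes of at least 20 stromal UMIs left out, 3 of these 32 genes and 16 of the other 26 were still higher in all 3 lineages, and 55 of the 69 lower genes were still lower.

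Leaving aside the lower minimum levels, which can only add genes, and the omission of stray genes, 7 of the 58 higher and 11 of the 69 lower genes were still past 2-fold in all 3 lineages under every alternative setting. The 7 were Abca1, Abcg1, Mylip and Taco1 and the collagens Col1a1, Col1a2 and Col3a1. The 11 were Isg15, Isg20, Bst2, Ifi204, Ms4a4c, Cxcl10, Ubb, Ppa1, a pyrophosphatase, Tspo, Clic1 and Polr2j, and no ribosomal protein gene was among them.

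Among the genes past 2-fold in all 3 lineages, WT anti-PD1 lay outside the other libraries more often than WT IgG did. All 58 higher genes had WT anti-PD1 above the other 3 libraries in all 3 lineages and 64 of the 69 lower genes had it below them. Lying beyond WT IgG was fixed by how these genes were chosen. The share of all 2909 genes with WT anti-PD1 outside the other 3 libraries is not given here. WT IgG was outside the range of the other 3 libraries in all lineages for 19 of the 58 higher and 6 of the 69 lower genes. In the A159V pair, anti-PD1 against IgG, none of the 58 higher and 1 of the 69 lower genes was past 2-fold in the same direction in all 3 lineages. The share of all measured genes past 2-fold in that pair is not given here, so these counts have no background beside them. The 69 lower genes had medians of -0.49, -0.41 and -0.52 in T, NK and myeloid barcodes of that pair, and the 58 higher genes -0.28, 0.70 and 0.26. Isg15 in A159V anti-PD1 and A159V IgG was at 447 and 629 CPM in T, 223 and 208 CPM in NK and 1251 and 1944 CPM in myeloid barcodes. The interferon list had medians of -0.24, 0.11 and -0.40 in that pair. Immune barcodes that met no lineage gate went the same way for most of these genes. In them 46 of 56 measured higher genes and 56 of 69 lower genes were past 2-fold, against 9.74% and 6.46% of all 4362 measured genes. These barcodes came from the same 2 libraries in which the genes were chosen, so the counts are no independent check. They also held stromal RNA, with the stromal markers at 8500 CPM in WT anti-PD1 and 653 CPM in WT IgG. Of the higher genes, 30 of 32 stray ones and 16 of 24 others were past 2-fold. The LXR list had 2 of 7 measured genes higher and none lower in these barcodes (median 0.84). Isg15 was at 313 and 1650 CPM and Abca1 at 466 and 190 CPM in barcodes without a lineage.

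Interferon gamma response genes were near even as a group. Of 20 measured in T barcodes 1 was higher and 3 were lower (median -0.10), of 13 in NK barcodes 2 and 2 (median -0.20), and of 22 in myeloid barcodes 1 and 3 (median -0.40). Gbp4, a guanylate-binding protein, was at 138 and 103 CPM in T, 104 and 36.4 CPM in NK and 88.6 and 58.5 CPM in myeloid barcodes. Cxcl10 was the only gene of this list lower in all 3. Cxcl9, its close relative, was at 235 and 18.9 CPM in T barcodes (log2 ratio 3.57), which became -0.87 with predicted doublets removed, and at 160 and 173 CPM in myeloid barcodes.

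Genes of MHC class I presentation were near even, with medians of -0.14, -0.21 and -0.06 in T, NK and myeloid barcodes. H2-K1, a class I heavy chain, was at 3053 and 3086 CPM in T, 2489 and 2798 CPM in NK and 3063 and 2449 CPM in myeloid barcodes. The 1 member past 2-fold in all 3 lineages was Psmb8, a subunit of the immunoproteasome, which was at 192 and 504.5 CPM, 131 and 374 CPM, and 204 and 428 CPM. After adjustment for gene length its T log2 ratio went from -1.39 to -0.78.

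**Figure D3:**
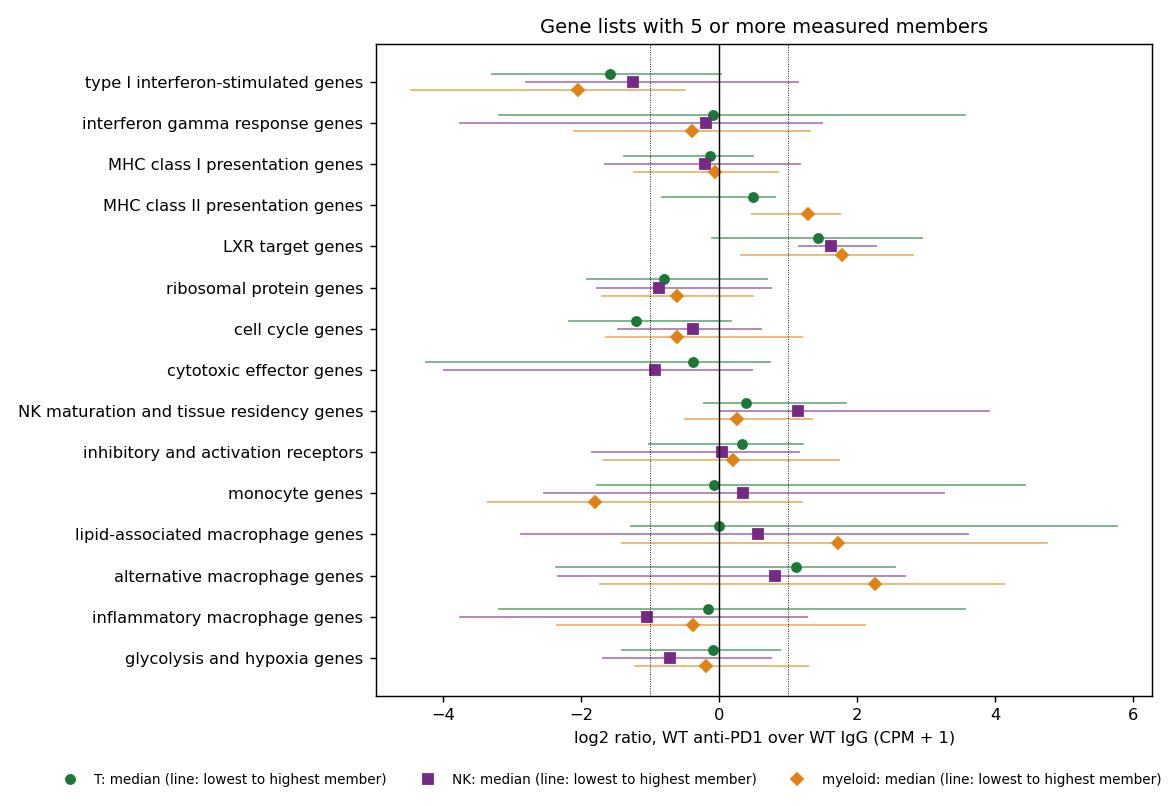
Median log2 ratio of CPM (WT anti-PD1 over WT IgG, 1 CPM added) of gene lists in T, NK and myeloid barcodes, with lines from the lowest to the highest measured member; lists with under 5 measured members in a lineage are not drawn, and dotted lines mark 2-fold. Type I interferon-stimulated genes lie to the left and LXR target genes to the right in all 3 lineages, while monocyte genes (-1.80) and lipid-associated macrophage genes (1.72) part in myeloid barcodes. The LXR list was added after the data were seen, because some of its members led the genes higher in all 3, so its place restates that choice.

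In T barcodes little was particular to the lineage among genes measured in all 3. A gene was counted as specific if it was past 2-fold in 1 lineage, under it in both others, and at least 1 log2 unit away from each of them. Only Ccr2 met this in T barcodes (0.0344% of 2909) and no gene did so in the lower direction. Ccr2, the receptor that brings monocytes and effector T cells to CCL2, was at 330 CPM in WT anti-PD1 and 124 CPM in WT IgG (log2 ratio 1.40, 1.26 to 1.55), against 640 and 502 CPM in NK and 232 and 387 CPM in myeloid barcodes. In the 489 and 349 T barcodes with Cd8a or Cd8b1 and no Cd4 UMI (CD8 barcodes) it was at 298 and 50.6 CPM. Ccr2 no longer counted as specific with overlap barcodes kept, a pseudocount of 10 CPM, the mean CPM per barcode, gates read at 1500 UMIs, CD8 and C1q barcodes, or barcodes of at least 20 stromal UMIs left out, while its T log2 ratio lay between 1.16 and 2.53 under all settings. Its neighbor among trafficking receptors, Cxcr6, which marks resident effector cells, was at 598 and 205 CPM in CD8 barcodes and had a log2 ratio of 1.28 in T barcodes. Cxcr3, the receptor for CXCL9 and CXCL10, was near even at 53.7 and 49.9 CPM.

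Of 242 genes measured in T barcodes alone, 26 (10.7%) were higher and 16 (6.61%) were lower. Il1rl1, the IL-33 receptor found on regulatory and type 2 T cells, was at 147 and 13.7 CPM in T (log2 ratio 3.34, 2.96 to 3.71) and at 20.9 and 8.01 CPM in CD8 barcodes. Csf1, the macrophage growth factor, was at 98.4 and 25.8 CPM in T and 139 and 27.0 CPM in CD8 barcodes. Areg, a tissue repair ligand, was at 157 and 52.0 CPM, and Foxp3, which defines regulatory T cells, at 78.4 and 48.6 CPM. Areg was past 2-fold and Foxp3 was not (log2 ratio 0.68, 0.43 to 0.92). Magi1, a junction scaffold, was at 64.9 and 3.42 CPM and Igfbp7, an insulin-like growth factor binding protein, at 91.2 and 12.4 CPM, and both were also over 5 times higher in non-immune barcodes than in another lineage. Nckap5 was at 151 and 43.9 CPM in T barcodes, and its log2 ratio went from 1.76 to -0.42 in CD8 barcodes.

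Inhibitory and activation receptors of T cells differed one by one. Il2ra, the high-affinity IL-2 receptor chain, was at 501 and 225 CPM and Cd200r1 at 88.8 and 37.6 CPM, while Tnfrsf4, or OX40, was at 165 and 334 CPM. These were the 2 genes higher and the 1 lower of 15 measured (median 0.33). Pdcd1, the target of the antibody, was at 126 and 112.5 CPM (log2 ratio 0.16, -0.01 to 0.34). Lag3 was at 163 and 83.6 CPM and Havcr2, or TIM-3, at 237 and 123 CPM, both just under 2-fold. In CD8 barcodes Havcr2 was at 417 and 136 CPM and Icos at 544 and 178 CPM, and 5 of 16 were higher and 3 were lower there. The list median in CD8 barcodes was 0.48, against 0.27 for all measured genes. The share of all genes past 2-fold in CD8 barcodes is not given here, so these counts have no background beside them.

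Cytotoxic genes of T barcodes split by granzyme. Gzmc was at 78.9 CPM in WT anti-PD1 and 529 CPM in WT IgG, and Gzmf at 10.8 and 225 CPM, both genes of the cluster of granzymes made by strongly activated mouse lymphocytes. Xcl1, which attracts cross-presenting dendritic cells, was at 36.0 and 277 CPM. Gzmb was at 841 and 1281 CPM, Prf1, or perforin, at 121 and 156 CPM, and Ifng, interferon gamma itself, at 132 and 182 CPM, all under 2-fold. With Serpinb9, an inhibitor of granzyme B, 4 of 19 measured genes were lower and none was higher (median -0.38). In CD8 barcodes Gzmc was at 43.5 and 403 CPM while Gzmk, a granzyme of memory-like CD8 cells, was at 111 and 41.5 CPM. The near-identical sequences of the granzymes Gzmc to Gzmf could split reads between them.

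Cell cycle genes were lower in T barcodes, 12 of 22 with none higher (median -1.20). Ube2c, a ubiquitin carrier of mitosis, was at 32.0 and 149 CPM, Top2a, the mitotic topoisomerase, at 95.7 and 233 CPM and Stmn1, a microtubule regulator, at 80.2 and 275 CPM. Mki67, the proliferation antigen, was at 60.3 and 114 CPM (log2 ratio -0.90, -1.10 to -0.70). Of the genes measured in T barcodes alone, Cdk1, Cenpw, Tpx2 and Ccnb2, all of mitosis, had log2 ratios between -1.96 and -1.56 and led the lower ones with Phf11c, a relative of the interferon-induced Phf11b. Of 4 measured replication-dependent histone genes, a list added after the data were seen, 3 were lower (median -2.71). Tumor line markers were also lower in T barcodes of WT anti-PD1, as given above, and their part in these genes was not tested. In NK barcodes 3 of 15 cell cycle genes were lower and none was higher (median -0.39).

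NK barcodes of WT anti-PD1 held far fewer granzyme transcripts. Of 18 measured cytotoxic genes 8 were lower in WT anti-PD1 and none was higher (median -0.93), and their summed level was 8596 CPM against 24520 CPM in WT IgG. Gzmc was at 514 and 8224 CPM (log2 ratio -4.00, -4.10 to -3.90). Gzmb, the main apoptosis-inducing granzyme, was at 722 and 3333 CPM and Gzme at 76.0 and 655 CPM. Xcl1 was at 153 and 1074 CPM and Tnf, tumor necrosis factor, at 33.5 and 81.8 CPM. Each of these was lower in WT anti-PD1, while Gzma, a granzyme of resting NK cells, was at 3129 and 3723 CPM and under 2-fold (log2 ratio -0.25, -0.31 to -0.19). Tnf moved to -0.19 with predicted doublets removed, from -1.26, whereas the log2 ratio of Gzmc lay between -4.26 and -3.30 under the alternative settings that changed the NK profiles.

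Of 9 measured genes of NK maturation and tissue residency, 5 were higher in WT anti-PD1 and none was lower (median 1.14). That median was 0.50 with gates read at 1500 UMIs, 0.65 after adjustment for gene length, 0.66 with median-of-ratios scaling and 0.74 for the mean CPM per barcode. Rora, a nuclear receptor of innate lymphoid cells, was at 253 CPM in WT anti-PD1 and 15.9 CPM in WT IgG (log2 ratio 3.91, 3.18 to 4.63). Eomes, the T-box factor of conventional NK cells, was at 311 and 141 CPM, Itga2, or CD49b, at 250 and 101.2 CPM, and Itgam, or CD11b, at 73.0 and 26.1 CPM. In NK barcodes the separate list of naive and memory T cell genes had 2 of 7 measured genes higher and none lower. Its largest log2 ratio, 1.997, was that of Tcf7, a factor of less differentiated lymphocytes, at 198 and 48.9 CPM. Satb1, a chromatin organizer, was at 1178 and 533 CPM. Under the same settings the NK log2 ratio lay between 2.83 and 3.91 for Rora, 1.72 and 2.19 for Tcf7, 0.88 and 1.46 for Eomes, 0.63 and 2.01 for Itgam, 0.47 and 1.49 for Itga2, and 0.50 and 1.33 for Satb1, so the last 4 fell under 2-fold in some of them. Killer lectin-like receptors stayed near even, with 1 of 15 higher, Klrc2 at 219 and 107 CPM, and none lower (median 0.15). Glycolysis genes were lower in 6 of 20 measured and higher in none (median -0.71, but -0.18 with predicted doublets removed and -0.33 for the mean CPM per barcode), among them Gapdh at 328 and 897 CPM and Ldha at 271 and 630 CPM.

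**Figure D4:**
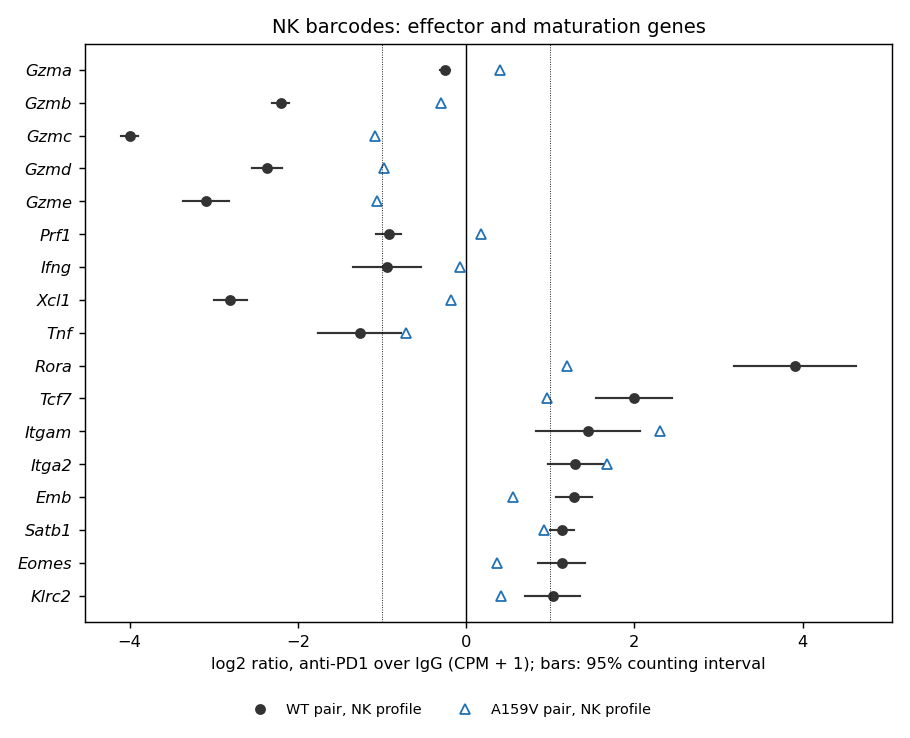
Log2 ratio of CPM (anti-PD1 over IgG, 1 CPM added) of effector and maturation genes in NK barcodes, filled circles with 95% counting intervals for the WT pair and open triangles for the A159V pair; dotted lines mark 2-fold. Granzymes other than Gzma and Xcl1 lie left of -2 in the WT pair and near -1 or above in the A159V pair, and Rora lies at 3.91 and 1.198.

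Of the 2909 genes measured in all 3 lineages 20 (0.688%) were higher and 10 (0.344%) lower in NK barcodes alone. Ifitm1, an interferon-induced restriction factor, was at 11.4 and 90.9 CPM in NK barcodes (log2 ratio -2.89, -3.57 to -2.22) against 186 and 248 CPM in T barcodes. AA467197, also named for the miR-147 precursor it hosts, was at 67.7 and 365 CPM in NK barcodes against 175 and 102 CPM in T barcodes, which was opposite in direction though under 2-fold in T. Bcl2a1d, a survival protein of the BCL2 family with near-identical copies, was at 14.4 and 52.3 CPM and Basp1 at 51.5 and 113 CPM. On the higher side, Rassf2, a RAS-association protein, was at 102 and 22.7 CPM, Cdk14 at 226 and 54.6 CPM and Wwox at 344 and 134 CPM. Il6st, the receptor chain shared by IL-6 family cytokines, was at 70.0 and 9.09 CPM, and its log2 ratio went from 2.81 to 1.27 without barcodes of at least 20 stromal UMIs. Gng12 went from 2.04 to 0.94 in the same way and to -0.22 with gates read at 1500 UMIs.

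Genes measured in NK barcodes alone were higher in 105 of 356 (29.5%) and lower in 34 (9.55%). Of the 105, 33 were stray in NK barcodes. The 5 largest that were not were Fbxl7, Htra3, C4b, Il33 and Angpt1, and without barcodes of at least 20 stromal UMIs their log2 ratios went from 5.87 to 3.25, from 5.43 to 1.92, from 5.27 to 1.09, from 4.05 to -0.07 and from 2.85 to 2.94. Fbxl7 had 0 UMIs in WT IgG and was at least 16.9-fold higher. Ccl1, a chemokine of activated lymphocytes, had 52 UMIs in WT IgG and 0 in WT anti-PD1, and was at least 32.9-fold lower. Zfp593, Lrrc4 and Eef1e1 were also lower, with log2 ratios between -2.20 and -1.89.

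Myeloid barcodes of WT anti-PD1 held fewer monocyte transcripts and more of those of mature macrophages. Of 14 measured monocyte genes 9 were lower and 1 was higher (median -1.80). Ly6c2, the surface protein of inflammatory monocytes, whose sequence is close to that of Ly6c1, was at 194 CPM in WT anti-PD1 and 1506 CPM in WT IgG in myeloid barcodes (log2 ratio -2.95, -3.04 to -2.87), but at 728 and 844 CPM in T and 144 and 172 CPM in NK barcodes. Plac8 was at 476.5 and 4895 CPM and Vcan, a matrix proteoglycan of monocytes, at 94.9 and 351 CPM. All were lower in WT anti-PD1. Barcodes with at least 3 UMIs of C1qa, C1qb and C1qc, which mark mature macrophages, were 529 of 820 myeloid barcodes in WT anti-PD1 and 315 of 1312 in WT IgG. Median depth of all myeloid barcodes was 6756 and 3961 UMIs and the 3 C1q genes summed to 2505 and 1787 CPM over them, and the part of depth in these counts was not tested. Within these C1q barcodes, Ly6c2 was still at 89.8 and 998 CPM and Plac8 at 174 and 2140 CPM, and 8 of 13 monocyte genes were lower (median -1.34). The median of all measured genes in C1q barcodes was -0.02. The share of all genes past 2-fold in C1q barcodes is not given here, so counts in them have no background beside them. C1q barcodes are part of the myeloid barcodes, so such counts are no independent check of the myeloid ones.

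Lipid-associated macrophage genes were higher in 15 of 19 measured and lower in 1, Spp1 (median 1.72). Lpl, lipoprotein lipase, was at 1220 and 44.5 CPM (log2 ratio 4.75, 4.58 to 4.91). The lysosomal proteases Ctsl and Ctsd were at 5122 and 678 CPM and at 2011 and 364 CPM. Fabp5, a fatty acid carrier, was at 2497 and 673 CPM, and Trem2, the lipid-sensing receptor, at 212 and 76.1 CPM. All 5 were higher in WT anti-PD1. In C1q barcodes Lpl was at 1414 and 110 CPM, Ctsl at 6597 and 1276 CPM, and 11 of 19 genes of the list were higher (median 1.26). Lpl and Ctsl were over 5 times higher in non-immune barcodes of WT anti-PD1 than in at least 1 of the lymphoid profiles.

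Alternative activation genes were higher in 13 of 19 measured and lower in 3 (median 2.25). Mrc1, the mannose receptor, was at 1534 and 156 CPM, Arg1, arginase, at 1550 and 185 CPM and Retnla, a marker of IL-4 exposure, at 266 and 14.3 CPM. Ccl8, a chemokine of resident macrophages, was at 2181 and 152 CPM and the scavenger receptor Cd36 at 916 and 61.4 CPM. Ccl8 was also over 5 times higher in non-immune barcodes of WT anti-PD1 than in 1 or more profiles. The 3 lower members were Ccl2, at 662 and 1532 CPM, Ccl12, at 158 and 376 CPM, and Chil3, at 110 and 369 CPM, which are monocyte attractants and a chitinase-like protein. In C1q barcodes 11 of 19 were higher (median 1.28), with Mrc1 at 1822 and 388 CPM and Arg1 at 1745 and 423 CPM.

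Inflammatory macrophage genes did not move as 1 group, with 1 of 19 higher and 5 lower (median -0.38). Il18 was at 18.5 and 98.4 CPM and Cd86, the costimulatory ligand of CD28, at 388 and 784 CPM, both lower, while Nos2, the inducible nitric oxide synthase, was at 114 and 25.6 CPM and higher. Il1b was at 731 and 1221 CPM and Tnf at 520 and 378 CPM, both under 2-fold. MHC class II genes were higher in 6 of 7 measured (median 1.29). H2-Aa was at 2430 and 722 CPM and Cd74, the invariant chain, at 4607 and 1445 CPM. In C1q barcodes none of the 7 class II genes was past 2-fold (median 0.72), with H2-Aa at 2260 and 1190 CPM.

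**Figure D5:**
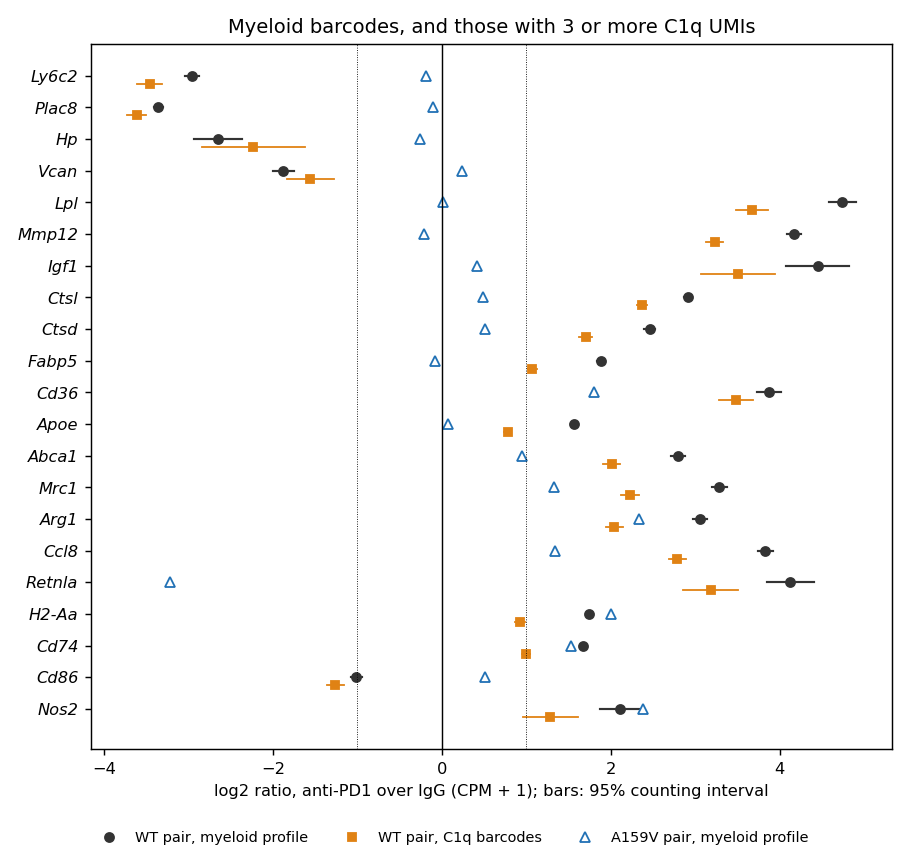
Log2 ratio of CPM (anti-PD1 over IgG, 1 CPM added) of monocyte and macrophage genes, black circles for all myeloid barcodes and orange squares for C1q barcodes of the WT pair, each with its 95% counting interval, and open blue triangles for myeloid barcodes of the A159V pair. From all myeloid to C1q barcodes Ly6c2 goes from -2.95 to -3.46 and Lpl from 4.75 to 3.67, the list medians go from -1.80 to -1.34 for monocyte and from 1.72 to 1.26 for lipid-associated macrophage genes, and class II genes lie at or under 1 there.

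Among genes measured in all 3 lineages 14 (0.481%) were higher and 42 (1.44%) lower in myeloid barcodes alone, and 10 and 27 of them were also past 2-fold in C1q barcodes. Beside Ctsl and Fabp5 the higher ones were led by Tfrc, the transferrin receptor, at 120 and 27.9 CPM, and Fchsd2, an endocytosis adaptor, at 226 and 35.2 CPM. Fchsd2 was at 221 and 213 CPM in T barcodes and 152 and 139 CPM in NK barcodes, so it was even in both lymphoid lineages. Atp2b4, a calcium pump, was at 24.4 and 86.9 CPM in myeloid against 240 and 150 CPM in T barcodes. Morrbid, a long noncoding RNA of short-lived myeloid cells, was at 175 and 553 CPM in myeloid against 203 and 113 CPM in T barcodes. Epsti1 was at 172 and 639 CPM in myeloid and 830 and 729 CPM in T barcodes.

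Of 728 genes measured in myeloid barcodes alone, 171 (23.5%) were higher and 92 (12.6%) lower. Mmp12, the macrophage elastase, was at 3116 and 172 CPM, Igf1 at 168 and 6.70 CPM and Atp6v0d2, a subunit of the vacuolar proton pump, at 167 and 7.13 CPM. In C1q barcodes 108 of the 171 and 68 of the 92 were also past 2-fold, which the overlap with the myeloid barcodes favors by itself. Ifit1bl1 and Trim30c, both of interferon-induced families, were at 5.15 and 124 CPM and at 5.90 and 80.9 CPM. Cntn3 and Tenm3, adhesion proteins of neurons, were at 0.757 and 79.3 CPM and at 4.997 and 63.3 CPM, and both were over 5 times higher in non-immune barcodes of WT IgG than in 1 or more profiles. With predicted doublets removed, the log2 ratio of Cntn3 went from -5.51 to -2.19 and that of Tenm3 from -3.42 to -2.03.

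Side by side with the A159V pair, some lineage-bound differences recurred and others did not. Class II genes were higher under anti-PD1 in both pairs, with a myeloid median of 1.29 in WT and 1.54 in A159V tumors, but in C1q barcodes none of 7 was past 2-fold in WT (median 0.72) and 5 of 7 were in A159V tumors (median 1.84). Arg1 was at 636.5 and 125.5 CPM in A159V anti-PD1 and A159V IgG, while the alternative activation list it belongs to had a myeloid median of 0.39 in A159V and 2.25 in WT tumors. Monocyte genes, at a median of -1.80 in the WT pair, had one of -0.00 in the A159V pair, and Plac8 was at 5294 and 5685 CPM there. The cytotoxic list in NK barcodes had a median of -0.93 in the WT and -0.18 in the A159V pair, with Gzmc at 6799 and 14450 CPM in the latter. Lipid-associated macrophage genes had medians of 1.72 and 0.13. With 1 library per group none of these differences between the pairs could be tested.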

How the data were processed

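Single-cell RNA-seq (10x Genomics 3′ gene expression) had been run on CD45-positive and CD45-negative cells of tumors, in 4 libraries. Per the file headers the authors made the deposited values, whole UMI counts per gene and barcode, with Cell Ranger 7.2.0 on the mm10 reference; the submitters' processing notes name Cell Ranger 5.0.1. The counts precede the authors' own correction for free RNA and doublets. No column of per-sample values was left unused.

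The WT libraries held 7430 (anti-PD1) and 7802 (IgG) barcodes and 54402632 and 93030164 UMIs, and 6840 and 7292 barcodes had more than 500 genes. Counts were summed per gate and compared as log2(CPM + 1) with delta-method 95% counting intervals. 50 CPM corresponded to between 43.99 and 343.5 UMIs. With 1 library per group no test was made. Doublets were not removed, except in an alternative that scored barcodes against 2 simulated doublets each (0.8% per 1000 barcodes). Genes were described by 35 lists and 2 lists (LXR targets, histones) added after the data were seen. The members and lists were chosen with earlier results of these data known. Named genes were the 10 shared genes with the largest smallest log2 ratio per direction, 5 stray ones, the 5 largest gaps or ratios per lineage and direction, and list members. Polr2j, Clic1, Tspo, Ppa1, Cxcl2 and the other genes that went opposite ways were named after their values were seen. A few genes are not reported here. Gene lengths came from GENCODE (GRCm38; 32235 of 32285 genes matched). Python 3.11.15, numpy 2.4.6, scipy 1.17.1, pandas 2.3.3, scikit-learn 1.9.0 and matplotlib 3.10.9 were used. The log2 ratio, its counting interval, the minimum level and the 2-fold cut were tested on simulated counts. The gates, the sorting into shared and lineage-specific genes, the stray definition, doublet scoring and the length adjustment were not tested in this way.

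Alternatives were a minimum of 1000 genes, mitochondrial share under 10%, double-gate barcodes kept, gates read at 1500 UMIs, CD8 and C1q barcodes, doublets removed, a pseudocount of 10 CPM, minimums of 20 CPM and none, median-of-ratios scaling, mean CPM per barcode, a total without mitochondrial, ribosomal and hemoglobin genes, and stray genes left out. Leaving out barcodes with 20 or more stromal UMIs and adjusting for gene length were chosen after seeing the data.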

Additional observations from a re-analysis of the deposited data

Results flagged for a closer look

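The following log2 ratios of anti-PD1 over IgG had opposite signs in the WT and the A159V pair, and with 1 library per group the difference was not tested. Retnla, a secreted protein of macrophages exposed to IL-4, had a ratio of 4.13 in WT myeloid barcodes (266 and 14.3 CPM) and of -3.22 in A159V myeloid barcodes (5.15 and 56.1 CPM). The other 4 were stromal. Col1a1 in T barcodes stood at 6.98 in the WT pair (1817 and 13.4 CPM) and -2.12 in the A159V pair (47.0 and 207 CPM), and Col1a2 at 7.15 (1778 and 11.6 CPM) and -1.60 (53.3 and 163 CPM). Postn in myeloid barcodes stood at 4.22 (234 and 11.7 CPM) and -1.01 (32.3 and 66.0 CPM). The 7 stromal markers in T barcodes had a median of 5.67 (summed level 6968 and 115 CPM) in the WT pair and -1.65 (237 and 796 CPM) in the A159V pair. In A159V IgG, 4 T barcodes held 93.8% of the stromal UMIs. Without barcodes of at least 20 stromal UMIs the sum was 73.8 CPM in T barcodes of A159V anti-PD1 and 50.6 CPM in those of A159V IgG, so the direction turned, and 24.3% and 12.5% of T barcodes held a stromal UMI.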

How the results depend on the processing

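Counts of genes depended most on the minimum level. With a minimum of 20 CPM, 590 genes were higher and 472 lower in T, 1321 higher in NK, 613 higher and 515 lower in myeloid barcodes, 155 and 109 in all 3, and 225 were lineage-specific, against 87 at 50 CPM. With no minimum these were 1993 and 971 in T, 4087 and 1640 in NK, 1591 and 1485 in myeloid barcodes, 571 and 225 in all 3, 1884 specific and 141 restricted to 1 lineage, against 444. Median-of-ratios scaling gave 157 and 534 in T, 356 and 616 in NK, and 38 higher in all 3. Without predicted doublets 25 genes were higher and 31 lower in all 3, with gates read at 1500 UMIs 18 and 42, with 164 specific. Mean CPM per barcode gave 157 higher in T and 34 in all 3, leaving out stray genes 181 and 26, leaving out barcodes with 20 or more stromal UMIs 23 higher in all 3, CD8 and C1q barcodes 57 specific, and adjustment for gene length 389 higher in NK and 37 lower in all 3. The cause of these shifts was not tested, beyond what each setting leaves out.

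With gates read at 1500 UMIs the NK log2 ratio reversed for Scd2 (-0.016), Gng12 (-0.22), Il33 (-0.96) and the median of TGF-beta and collagen-linked genes (-0.043, from 1.14). In CD8 and C1q barcodes it reversed for Nckap5 in T (-0.42), the cholesterol list in myeloid (0.66) and the alternative macrophage list in T barcodes (-0.011). Il33 was at -0.068 in NK barcodes without those of 20 or more stromal UMIs. No paired analysis was possible because each group was 1 library. Depth limited NK barcodes of WT IgG most, where 50 CPM was 43.99 UMIs.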

Other observations

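Heat shock genes had none of 11 measured past 2-fold in T barcodes, while 3 of 10 were higher and 2 lower in NK barcodes. Immediate early genes had 3 of 22 higher and none lower in T barcodes, with a median of 0.245 against 0.265 for all measured genes, so the list as a whole did not stand out. The higher ones were led by Egr3, at 63.1 CPM in WT anti-PD1 and 18.4 CPM in WT IgG, and Egr1, at 246 and 102 CPM. Both are early targets of T cell receptor signaling. Of all measured genes 6.36% were higher and 6.87% lower in T barcodes, and 15.3% and 7.92% in NK barcodes. In NK barcodes none of 19 was higher and 3 were lower. Regulatory T cell genes had 3 of 9 higher and 2 lower in T barcodes (median 0.15), and genes of naive and memory T cells had none of 10 past 2-fold (median 0.49).

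NF-kappaB targets in NK barcodes had 1 of 17 higher and 6 lower (median -0.24). Complement genes in myeloid barcodes had 1 of 9 higher and none lower (median 0.50), where 9.4% of all measured genes were higher and 8.69% lower. Fc receptor genes parted in myeloid barcodes, with 1 of 6 higher and 2 lower. Fcgrt, the neonatal Fc receptor that recycles IgG, was higher with a log2 ratio of 1.95, and Fcgr1, the high-affinity IgG receptor, was lower with -1.24. In NK barcodes Fcer1g, the signaling chain of activating Fc receptors, was at 835 and 2095 CPM.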
